A study of Mus musculus with 8 samples.

Results

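The 10 genes described here encode the proteins that take a cell through G1: the D-type cyclins Ccnd1, Ccnd2 and Ccnd3, the E-type cyclins Ccne1 and Ccne2, the cyclin-dependent kinases (CDKs) Cdk4 and Cdk6, the CDK inhibitors Cdkn1a (p21) and Cdkn1b (p27), and the pocket protein Rb1. They were taken by name as a list, with each symbol matched to an Ensembl gene ID, and all 10 were found among the 52550 genes of the count tables. All 10 were also among the 20749 genes left by a filter on low counts, so none of them was lost before testing. The study asked how mouse embryonic stem cells (ESCs) without Dax1, an orphan nuclear receptor encoded by Nr0b1, fare in the ground state and in conventional culture. Polyadenylated RNA of 4 groups was sequenced, with 2 libraries per group, all labelled passage 3. Control ESCs and Dax1KO ESCs were each grown on gelatin in 2i/LIF, which is N2B27 medium with the MEK inhibitor PD0325901 at 1 µM, the GSK3 inhibitor CHIR99021 at 3 µM and LIF at 10 ng/ml. Both lines were also grown in LIF/serum, with 15% serum and LIF at 10 ng/ml. The knockout was made with a lentivirus that carries Cas9, a guide against the start of the Dax1 coding sequence and zeocin resistance, and colonies were picked in 2i/LIF, so the Dax1KO cells carry the vector. The functional experiments used 1 picked clone, and the labels do not name the clone that was sequenced. The paper calls the comparison cells wild-type ESCs, where the labels say control. Whether these control ESCs carried a vector, and whether the 2 libraries of a group came from separate cultures, is not given in the sources used here. The p-values below therefore measure the spread between these libraries, which may be technical.

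In G1, D-type cyclins bind Cdk4 or Cdk6 and start the phosphorylation of Rb1, which otherwise holds E2F transcription factors inactive. E-type cyclins with Cdk2 complete that step and start DNA replication. Cdkn1a and Cdkn1b bind cyclin-CDK complexes and restrain Cdk2, and Cdkn1a is a classic target of p53. Mouse ESCs are known for a short G1 phase and for abundant cyclin E, and MEK signalling, which 2i blocks, is a known inducer of Ccnd1 in many cell types.

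The libraries held between 35911384 and 37286251 counts, so a member with 1000 counts has little counting error and the spread between libraries sets the precision. Control ESCs had 456 and 300 Nr0b1 counts in 2i/LIF and 5095 and 4689 in LIF/serum. Dax1KO ESCs had 0 in both 2i/LIF libraries and 14 and 6 counts in LIF/serum, so no library went against its genotype label. The 6 markers of undifferentiated ESCs were detected in every library, with a summed normalized count between 121034 and 164919.

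Compared per length, as CPM (counts scaled to library size) per kilobase of exon, Cdk4 was the highest of the 10 genes in every group, and Ccnd2 was the lowest in every group. The Cdk4 level was 81.6 ± 4.53 (SD, n = 2) in control ESCs in 2i/LIF and 137 ± 14.1 in LIF/serum. Ccne1 followed Cdk4 or Cdkn1a, with a level of 49.2 ± 3.998 in control ESCs in 2i/LIF and 112 ± 7.01 in LIF/serum. The Cdkn1a and Ccne1 levels overlapped between libraries in control ESCs in 2i/LIF, with Cdkn1a at 50.3 ± 8.47. In control ESCs in LIF/serum, Cdkn1a was lower, at a level of 17.7 ± 1.008, and lay below Ccnd1 at 30.7 ± 7.38. Cdk6, the partner kinase of Cdk4, came just above Ccnd2 in all 4 groups, with a mean level between 1.15 and 2.23. In Dax1KO ESCs in 2i/LIF, the levels of Ccne2, Ccnd3, Ccnd1, Rb1 and Cdkn1b lay between 6.72 and 12.1 and each overlapped the next in order, so the middle of the order cannot be read there.

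**Figure D1:**
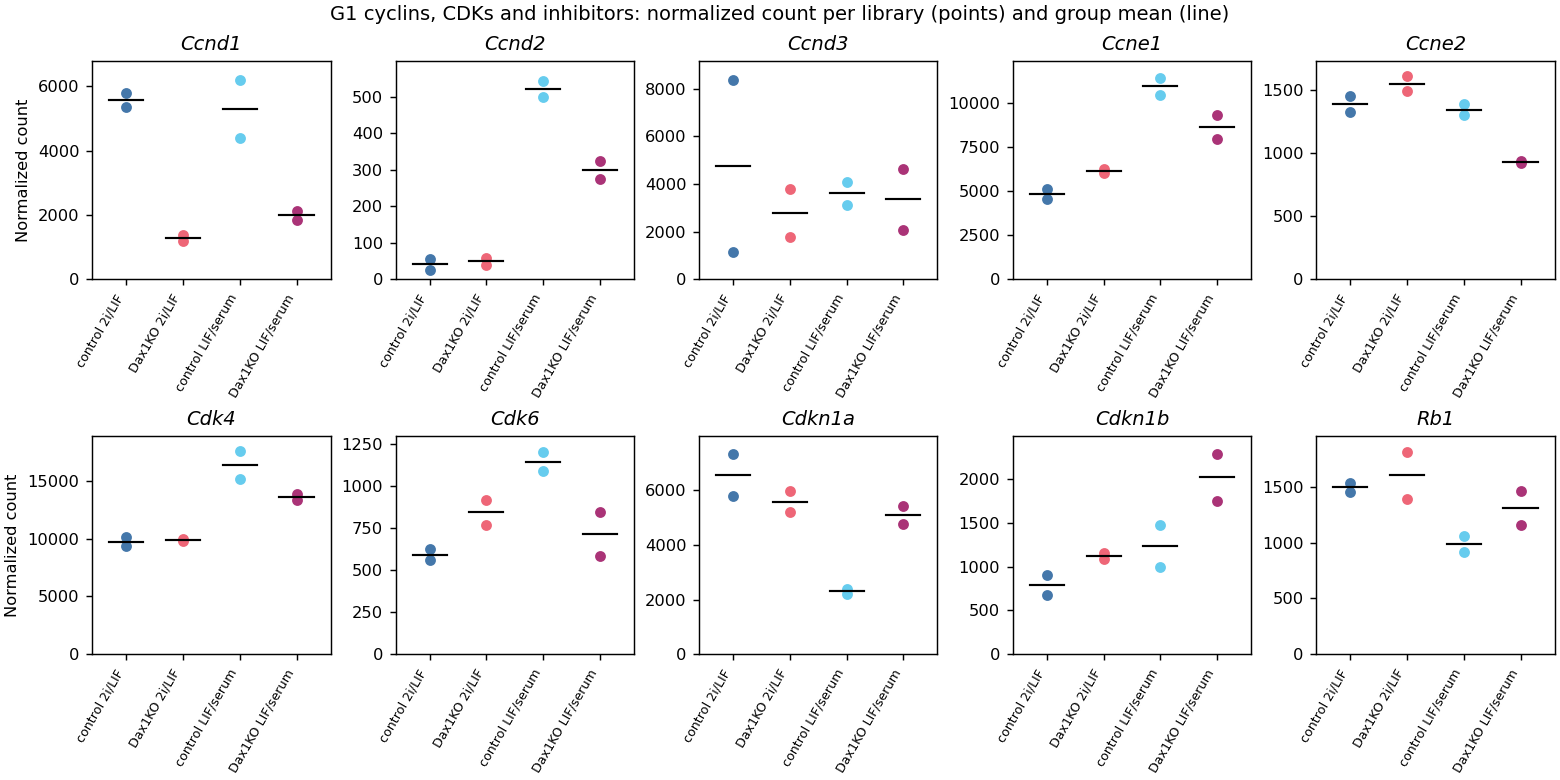
Normalized count (y axis, from 0; counts scaled to the mean library) of each of the 10 genes in the 4 groups (x axis), with 1 point per library and a line at the group mean. Ccnd1 is low in both Dax1KO groups, Ccnd2 is near the floor in both 2i/LIF groups, Cdkn1a is low only in control ESCs in LIF/serum, and the 2 points of Ccnd3 in control ESCs in 2i/LIF lie at 8366 and 1148.

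The sequences before Cdk4 and Ccne1 are shown because these were the most abundant kinase and cyclin and both were lower in 2i/LIF in both lines (given below with their values). RefSeq promoter windows of GRCm38.p6, from 250 bases before to 50 after a transcript start, were found for 6 of the 10 genes in 8 windows, and the 250 bases before the start were searched on both strands for 3 motifs. These were the E-box CACGTG, the GC box GGGCGG, and a set of 4 E2F motifs, TTTCCCGC, TTTCGCGC, TTTGCCGC and TTTGGCGC, none of which overlaps another motif kind. The bases upstream of the annotated gene are printed 5′ to 3′ on the gene's strand, for Cdk4 chr10:127063285-127063533 on the plus strand with its E-boxes in capitals, and for Ccne1 chr7:38107535-38107740 on the minus strand with its GC boxes in capitals.
Cdk4: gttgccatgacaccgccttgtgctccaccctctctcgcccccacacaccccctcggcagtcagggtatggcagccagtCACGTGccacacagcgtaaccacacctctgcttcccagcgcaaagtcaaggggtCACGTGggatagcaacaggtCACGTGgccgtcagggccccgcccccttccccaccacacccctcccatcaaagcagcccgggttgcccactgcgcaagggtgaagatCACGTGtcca
Ccne1: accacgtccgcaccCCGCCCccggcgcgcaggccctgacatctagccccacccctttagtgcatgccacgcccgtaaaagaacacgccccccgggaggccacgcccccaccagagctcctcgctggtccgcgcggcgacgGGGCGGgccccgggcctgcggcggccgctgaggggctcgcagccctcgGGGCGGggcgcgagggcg
The Cdk4 window held 4 E-boxes, where 6.02% of all 32851 promoters held at least 1 and 0.0213% held at least 4. The Ccne1 window held 4 GC boxes, 3 of them in the stretch printed, where 32.7% of all promoters held at least 1 and 4.09% held at least 4. None of the 8 windows held one of the 4 E2F motifs, which 1.86% of all promoters did, and this says only that these letters are not in these windows.

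Dax1KO and control ESCs were compared within each medium. Loss of Dax1 cannot be told apart there from the picking of a clone, the vector or the upward shift of chromosome 6 (given below). In LIF/serum it cannot be told apart from culture history either, since the Dax1KO line was derived in 2i/LIF and moved. A gene was called where the p from the edgeR quasi-likelihood test, adjusted over all tested genes by the method of Benjamini and Hochberg, was no higher than 0.05 and the fold change was 1.2 or more. In 2i/LIF, 1 of the 10 genes was called, Ccnd1, which was lower, against 3.16% of all tested genes called in either direction (1.51% higher and 1.65% lower). At an unadjusted p under 0.05, 2 were higher and 1 was lower, and the share of all genes at that p is not given here. DESeq2 also called 1 of the 10, beside 1438 of the 20749 tested genes. In LIF/serum, 3 of the 10 were called, Cdkn1a higher and Ccnd1 and Ccne2 lower, against 14.7% of all tested genes (8.87% higher and 5.78% lower). DESeq2 called 5 there, and its share of all genes is not given here. The libraries of the groups compared did not overlap for 5 of the 10 genes in 2i/LIF, where this held for 51.8% of all genes, and for 9 of 10 in LIF/serum, where it held for 57.5%. The median log2 fold change of the 10 genes was 0.13 in 2i/LIF and -0.30 in LIF/serum, beside -0.01 and 0.01 over all tested genes. The comparisons in the 2 media set different libraries against each other, but both use the same cell lines. Their p-values also share the estimate of the spread, which came from 1 fit of all 8 libraries.

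**Figure D2:**
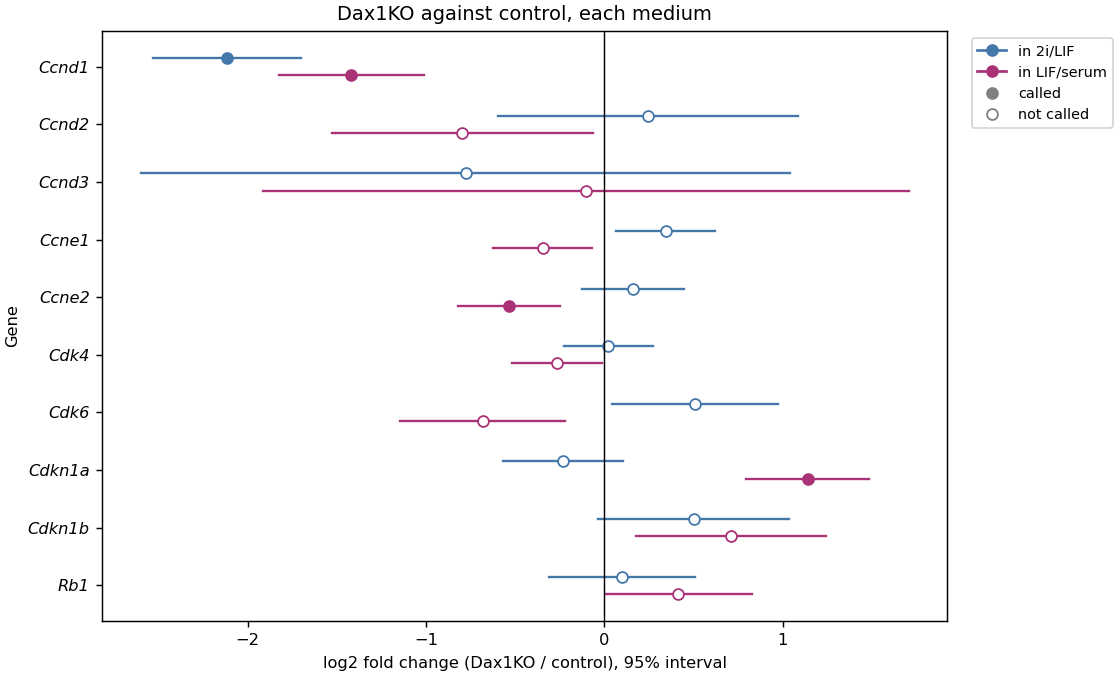
Log2 fold change of Dax1KO over control (x axis) for each gene (y axis) in both media, with 95% intervals from edgeR and filled points for called genes. Ccnd1 lies at -2.12 and -1.42, Cdkn1a lies at 1.14 in LIF/serum only, and both Ccnd3 intervals are wider than those of the other genes.

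Among the D-type cyclins, Ccnd1 was downregulated in Dax1KO ESCs in both media. Ccnd1, the main D-type cyclin of many growth-factor-dependent cells, lies at chr7:144929931-144939925 on the minus strand of mm10 (ENSMUSG00000070348.5). Its normalized counts in control ESCs were 5792 and 5354 in 2i/LIF and 6209 and 4403 in LIF/serum. In Dax1KO ESCs they were 1373 and 1199 in 2i/LIF and 2113 and 1854 in LIF/serum. Every Dax1KO library was thus below every control library in both media. The fold was 4.33 in 2i/LIF (log2 fold change -2.12, SE 0.18, edgeR adjusted p = 0.00436) and 2.67 in LIF/serum (log2 fold change -1.42, SE 0.18, edgeR adjusted p = 0.00382). Both calls held in all 15 alternative analyses, with log2 fold changes between -2.22 and -2.02 in 2i/LIF and between -1.66 and -1.15 in LIF/serum. The decrease was larger in 2i/LIF by 0.70 on the log2 scale (95% interval 0.13 to 1.26), and this difference between media did not pass the threshold (edgeR adjusted p = 0.177).

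Ccnd1 is not alone at its locus. LTO1, a gene on the opposite strand, overlaps Ccnd1 and shares 1100 bases of exon with it, and since no strand-specific counting is given in the sources used here, reads from the shared bases cannot be told apart. LTO1 fell too, from a mean of 1774 normalized counts in control to 725 in Dax1KO ESCs in 2i/LIF (log2 fold change -1.29, SE 0.13, edgeR adjusted p = 0.00669) and from 1535 to 789 in LIF/serum (log2 fold change -0.96, SE 0.13, edgeR adjusted p = 0.00513). The LTO1 call in 2i/LIF was lost without either Dax1KO library of that medium, at log2 fold changes between -1.32 and -1.26. LTO1 counts amounted to 31.8% of the Ccnd1 counts in control ESCs in 2i/LIF and to 56.4% in Dax1KO ESCs, so the 2 genes did not fall in proportion. Of the 13 other tested genes that lie at least in part within 500 kb of Ccnd1, edgeR and DESeq2 both called 0 in either medium, and 2 in 2i/LIF and 3 in the other medium had an unadjusted edgeR p under 0.05. These were Tpcn2 (log2 fold change -0.68, SE 0.24) and Fgf3 (-0.90, SE 0.36) in 2i/LIF. In LIF/serum they were Fgf3 (0.93, SE 0.36), Fgf15 (-0.64, SE 0.26) and Gm39119, with 21 and 16 counts in control and 3 and 0 in Dax1KO ESCs. The most abundant genes among the rest were Fgf4, an ESC growth factor gene 92.6 kb away, with 9638 normalized counts in control and 8608 in Dax1KO ESCs in 2i/LIF (log2 fold change -0.16, SE 0.11), and Cttn, with a log2 fold change of 0.07 (SE 0.10).

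**Figure D3:**
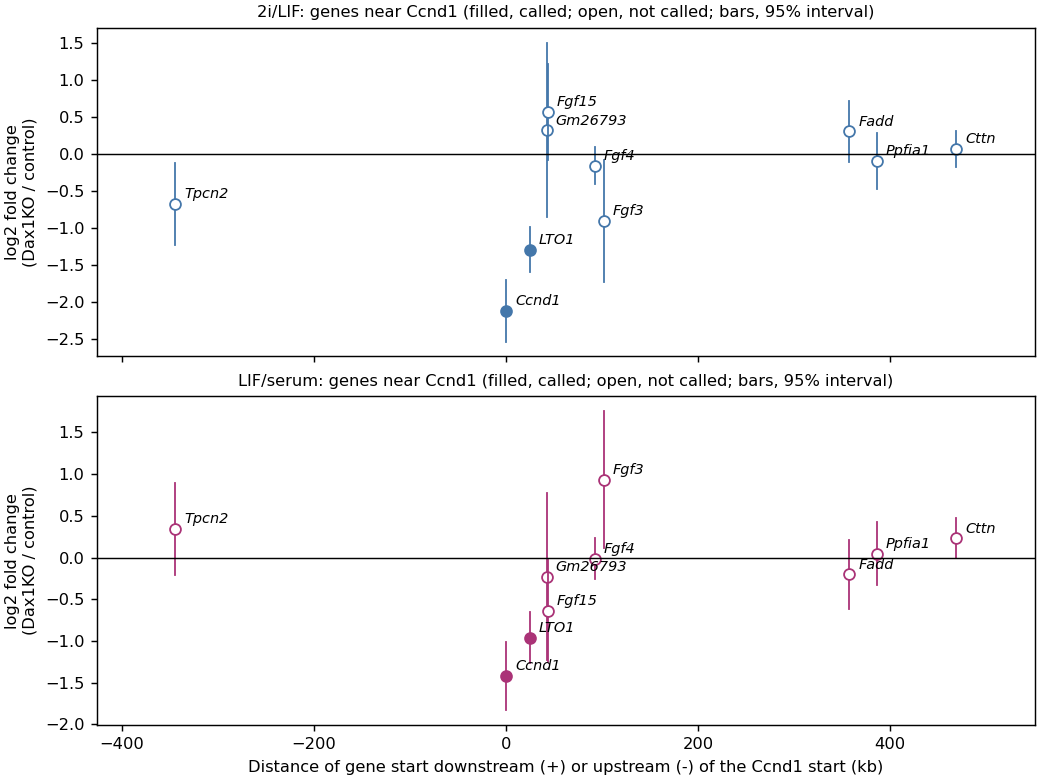
Log2 fold change of Dax1KO over control (y axis) for tested genes with a mean of at least 50 normalized counts against the distance of each gene's start from the Ccnd1 start in kb (x axis), in 2i/LIF above and LIF/serum below, with 95% intervals. The filled points, called genes, are Ccnd1 and LTO1 in both panels.

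Ccnd2, the D-type cyclin at chr6:127125162-127152193 (minus strand, ENSMUSG00000000184.12), was scarce in 2i/LIF whatever the genotype. Its normalized counts in 2i/LIF were 56.2 and 26.0 in control and 39.9 and 57.7 in Dax1KO ESCs. In LIF/serum they were 544 and 499 in control and 276 and 325 in Dax1KO ESCs. The groups overlapped in 2i/LIF, and both Dax1KO libraries were below both control libraries in LIF/serum. The log2 fold change of Dax1KO over control was 0.25 (SE 0.37) in 2i/LIF and -0.80 (SE 0.32) in LIF/serum, and neither passed the threshold (edgeR adjusted p = 0.81 and 0.134). Genes of chromosome 6 were shifted upward as a whole in the Dax1KO libraries, with a median log2 fold change of 0.44 (2i/LIF) and 0.52 (LIF/serum) over 1054 genes, beside -0.03 and -0.000215 on the other chromosomes. Against that median Ccnd2 stood 0.20 lower in 2i/LIF and 1.31 lower in LIF/serum, where only 6.26% of the chromosome 6 genes had a lower estimate. The part of the chromosome in the Ccnd2 values was not tested.

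Ccnd3, at chr17:47505051-47599691 (plus strand, ENSMUSG00000034165.16), could not be compared with any precision. Its normalized counts were 8366 and 1148 in control and 3785 and 1763 in Dax1KO ESCs in 2i/LIF, a ratio of 7.29 between the control libraries. In LIF/serum they were 3113 and 4094 in control and 4645 and 2068 in Dax1KO ESCs, so the groups overlapped in both media. Only 5 of the 6884 genes with a mean of at least 1000 normalized counts, Ccnd3 included, were at least as far apart as Ccnd3 between the control libraries in 2i/LIF. The log2 fold change of Dax1KO over control was -0.78 in 2i/LIF with a 95% interval from -2.60 to 1.04, and -0.10 in LIF/serum with an interval from -1.91 to 1.71. The estimate in 2i/LIF was 1.27 without the first control library and -1.58 at the other end of the range over left-out libraries. Ccnd3 shares 361 bases of exon with Bysl on the opposite strand, and Bysl counts stayed between 4855 and 6373 over the 8 libraries. A pseudogene, Ccnd3-ps, matches 18.6% of the longest Ccnd3 transcript.

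Added over the D-type cyclins per length, the level was 47.1 ± 17.7 (SD, n = 2) in control and 16.2 ± 5.11 in Dax1KO ESCs in 2i/LIF, and 43.4 ± 5.32 and 22.7 ± 6.61 in LIF/serum. Ccnd1 made up 72.8% ± 23.5 of that sum in control and 47.6% ± 10.6 in Dax1KO ESCs in 2i/LIF, and 70.2% ± 8.41 and 51.9% ± 10.4 in LIF/serum. The Ccnd1 shares of the libraries did not overlap between genotypes in LIF/serum, at 76.2% and 64.3% against 44.5% and 59.3%. They did not overlap in 2i/LIF either, at 56.2% and 89.5% against 40.1% and 55.2%, though the lower control share and the higher Dax1KO share lay next to each other and the control shares moved with the Ccnd3 counts. Ccnd2 contributed 0.245% of the sum in control ESCs in 2i/LIF and 3.49% in LIF/serum. Taking the longest transcript as the length gave Ccnd1 shares of 33.9% (2i/LIF) and 38.5% (LIF/serum) in Dax1KO ESCs, below those of Ccnd3. By exon union Ccnd3 made up 51.4% in 2i/LIF, already above Ccnd1, and 44.0% in LIF/serum, below it. The D-type sums by longest transcript were 74.3 ± 38.3 (SD) in control and 29.1 ± 10.9 in Dax1KO ESCs in 2i/LIF. In LIF/serum they were 66.3 ± 4.54 and 39.4 ± 14.0.

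The estimates for the E-type cyclins differed in sign between the 2 media. Ccne1, at chr7:38097984-38107534 (minus strand, ENSMUSG00000002068.16), had 4533 and 5086 normalized counts in control and 5998 and 6214 in Dax1KO ESCs in 2i/LIF. In LIF/serum it had 11414 and 10445 in control and 9282 and 7935 in Dax1KO ESCs. The Dax1KO libraries were above both control libraries in 2i/LIF and below both in LIF/serum. The log2 fold change was 0.34 (SE 0.12) in 2i/LIF and -0.34 (SE 0.12) in LIF/serum, and neither passed the threshold (edgeR adjusted p = 0.184 and 0.0951). The difference between media, -0.69 on the log2 scale (95% interval -1.08 to -0.30), was not called by edgeR (adjusted p = 0.0792) and was called by DESeq2 (adjusted p = 0.0152), with adjusted p values up to 0.228 over the alternatives.

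Ccne2, at chr4:11191351-11204779 (plus strand, ENSMUSG00000028212.16), was lower in Dax1KO ESCs in LIF/serum. Its normalized counts there were 1392 and 1298 in control and 919 and 937 in Dax1KO ESCs, beside 1323 and 1451 and then 1613 and 1489.6 in 2i/LIF. In LIF/serum the log2 fold change was -0.54 (SE 0.12, edgeR adjusted p = 0.0282), against 0.16 (SE 0.12, edgeR adjusted p = 0.577) in 2i/LIF. The call in LIF/serum was lost without any 1 of the 4 LIF/serum libraries or of the 2 Dax1KO libraries in 2i/LIF, at log2 fold changes between -0.60 and -0.48. It was also lost in a separate edgeR fit of the LIF/serum libraries (adjusted p = 0.0708). Over all alternatives its edgeR or DESeq2 adjusted p ranged from 0.00413 to 0.128. Ccne2 shares 609 bases of exon with Ints8 on the opposite strand.

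Neither G1 kinase was called for the knockout in either medium. Cdk4, at chr10:127063534-127067920 (plus strand, ENSMUSG00000006728.12), had 9355 and 10120.4 normalized counts in control and 9828 and 9968 in Dax1KO ESCs in 2i/LIF. In LIF/serum it had 15158 and 17544 in control and 13875 and 13358 in Dax1KO ESCs, with both Dax1KO libraries below both control libraries. For Cdk4 the log2 fold change was 0.02 (95% interval -0.23 to 0.28) in 2i/LIF and -0.26 (95% interval -0.52 to -0.01) in LIF/serum, with edgeR adjusted p = 0.955 and 0.147. Cdk4 shares 641 bases of exon with Tspan31 on the opposite strand.

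Cdk6, at chr5:3341485-3531008 (plus strand, ENSMUSG00000040274.11), had 561 and 626 normalized counts in control and 772 and 918 in Dax1KO ESCs in 2i/LIF. In LIF/serum it had 1205 and 1090.06 in control and 848 and 584 in Dax1KO ESCs. Like Ccne1, its Dax1KO libraries were both above control in 2i/LIF and both below control in LIF/serum. The estimates were 0.51 (SE 0.20, edgeR adjusted p = 0.234) in 2i/LIF and -0.68 (SE 0.20, edgeR adjusted p = 0.0579) in LIF/serum. DESeq2 called the LIF/serum difference (adjusted p = 0.0168), as did edgeR without the first Dax1KO library in LIF/serum (log2 fold change -0.97, adjusted p = 0.0424). Without the second Dax1KO library in LIF/serum the estimate shrank to -0.43 (edgeR adjusted p = 0.269), the other end of the range. The difference between media was -1.19 (SE 0.28), not called by edgeR (adjusted p = 0.0718) and called by DESeq2 (adjusted p = 0.00556), with adjusted p values up to 0.216 over the alternatives.

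The inhibitor Cdkn1a, at chr17:29090976-29100727 (plus strand, ENSMUSG00000023067.13), was upregulated in Dax1KO ESCs in LIF/serum. Its normalized counts in LIF/serum were 2215 and 2401 in control and 4766 and 5412 in Dax1KO ESCs. In 2i/LIF they were 7347 and 5783 in control and 5971 and 5209.6 in Dax1KO ESCs. The groups were far apart in LIF/serum and overlapped in 2i/LIF, and the control libraries in LIF/serum were the lowest of all 8. The fold was 2.21 in LIF/serum (log2 fold change 1.14, SE 0.15, edgeR adjusted p = 0.00446), and this call held in all 15 alternatives, with log2 fold changes of up to 1.23. In 2i/LIF the log2 fold change was -0.23 (SE 0.15, edgeR adjusted p = 0.481). Cdkn1a shares 273 bases of exon with AC167363.2 on the opposite strand. Cdkn1a was 1 of the 10 genes, against 2.87% of all tested genes (2.05% higher and 0.824% lower), whose Dax1KO effect differed between media at an adjusted p of at most 0.05, with a difference of 1.37 on the log2 scale (SE 0.21, edgeR adjusted p = 0.0224). At an unadjusted p under 0.05, 2 of the 10 differences were higher and 3 lower in LIF/serum, and the share of all genes at that p is not given here. DESeq2 called 1 and 3, beside 950 and 492 of the 20749 tested genes. The Cdkn1a difference was not called with no filter on low counts (edgeR adjusted p = 0.0657). It was also lost without the first control library of either medium or without any Dax1KO library, at differences between 1.19 and 1.48. Over the alternatives the edgeR or DESeq2 adjusted p ranged from 1.26e-06 to 0.1.

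Markers of other cell types moved in the same comparison. Of 6 endoderm markers, 5 were called higher in Dax1KO ESCs in LIF/serum and none lower, and their summed normalized count lay between 3915 and 5488 in control and between 12282.5 and 14567 in Dax1KO ESCs. In 2i/LIF the same sum lay between 1057 and 1072 in control and between 1082 and 1393 in Dax1KO ESCs. The sum over 5 trophectoderm markers in LIF/serum lay between 2256 and 2276 in control and 3116 and 3877 in Dax1KO ESCs, and that over 5 fibroblast markers between 458 and 483 and between 1434 and 1498, with Col3a1 and Lum at 3 counts or fewer. In that medium 1 of 5 trophectoderm markers and 2 of 4 tested fibroblast markers were called higher in Dax1KO ESCs, and none lower. In 2i/LIF, the trophectoderm sum lay between 936 and 1402 in control and between 2628 and 2866 in Dax1KO ESCs, with 2 of 5 called higher, none lower and Cdx2 at 3 counts or fewer in all of these libraries. The fibroblast sum in 2i/LIF lay between 1862 and 2349 in control and between 1235 and 1311 in Dax1KO ESCs. Of the 4 fibroblast markers tested there, Thy1 was called lower and the other estimates were above 0 without a call (median log2 fold change 0.71). In the same comparison 1 of 6 endoderm markers was called higher. The part of such cells in the Ccnd1, Ccne2 and Cdkn1a values was not tested. In bulk RNA, fewer cells of a type and less RNA per cell cannot be told apart.

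Cdkn1b, the other inhibitor, at chr6:134920401-134925513 (plus strand, ENSMUSG00000003031.14), had higher estimates in Dax1KO ESCs in both media. Its normalized counts in 2i/LIF were 679.8 and 906 in control and 1088 and 1158 in Dax1KO ESCs. In LIF/serum they were 994 and 1477 in control and 1753 and 2290.35 in Dax1KO ESCs, so the groups did not overlap in either medium. The log2 fold change was 0.50 (SE 0.23, edgeR adjusted p = 0.311) in 2i/LIF and 0.71 (SE 0.23, edgeR adjusted p = 0.0782) in LIF/serum, below the threshold for a call in both. DESeq2 called the LIF/serum difference (adjusted p = 0.0268). No left-out library gave a call in edgeR, with estimates from 0.45 without the first control library in LIF/serum to 1.012 without the second, and adjusted p values up to 0.337 without the second Dax1KO library. Both estimates lay close to the median of chromosome 6, which carries Cdkn1b, at the 55.5 percentile of its genes in 2i/LIF and the 62.3 percentile in LIF/serum.

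Rb1, the target of the cyclin-CDK complexes, at chr14:73183673-73325822 (minus strand, ENSMUSG00000022105.6), was not called for the knockout in either medium. Its normalized counts in 2i/LIF were 1458 and 1538 in control and 1391 and 1817 in Dax1KO ESCs. In LIF/serum they were 1056 and 913 in control and 1161 and 1464 in Dax1KO ESCs, with both Dax1KO libraries above both control libraries. The log2 fold change was 0.10 (SE 0.18, edgeR adjusted p = 0.855) in 2i/LIF and 0.41 (SE 0.18, edgeR adjusted p = 0.161) in LIF/serum. Rb1 shares 488 bases of exon with Rcbtb2 and 408 with Lpar6, both on the opposite strand. Counts ranged from 121 to 637 for Rcbtb2 and from 22 to 389 for Lpar6 over the libraries.

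The other axis of the design compares 2i/LIF with LIF/serum within each line. In control ESCs, 6 of the 10 genes were called, 2 higher and 4 lower in 2i/LIF, against 36.8% of all tested genes (20.3% higher and 16.5% lower). In Dax1KO ESCs, 6 were called, 1 higher and 5 lower, against 28.9% (15.2% higher and 13.7% lower). The libraries did not overlap between media for 7 of the 10 genes in control ESCs, where this held for 68.6% of all genes, and for 6 of 10 in Dax1KO ESCs, where it held for 68.9%. The median log2 fold change of the 10 genes was -0.30 in control and -0.37 in Dax1KO ESCs, beside 0.01 over all tested genes in both. In Dax1KO ESCs, medium and culture history cannot be told apart, since that line was derived in 2i/LIF and moved to LIF/serum. The comparisons between media use the same 8 libraries as the comparisons of genotypes, so that 1 group, such as the control ESCs in LIF/serum for Cdkn1a, enters both. Markers of other cell types also differed between media. All 6 endoderm markers were called lower in 2i/LIF in both lines, with a median log2 fold change of -1.37 in control and -3.35 in Dax1KO ESCs. Of 4 tested fibroblast markers, 3 were called higher and 1 lower in control ESCs and 1 each way in Dax1KO ESCs, and of 5 trophectoderm markers 1 was called higher and 2 lower in control and 2 lower in Dax1KO ESCs. Their part in the differences between media was not tested.

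**Figure D4:**
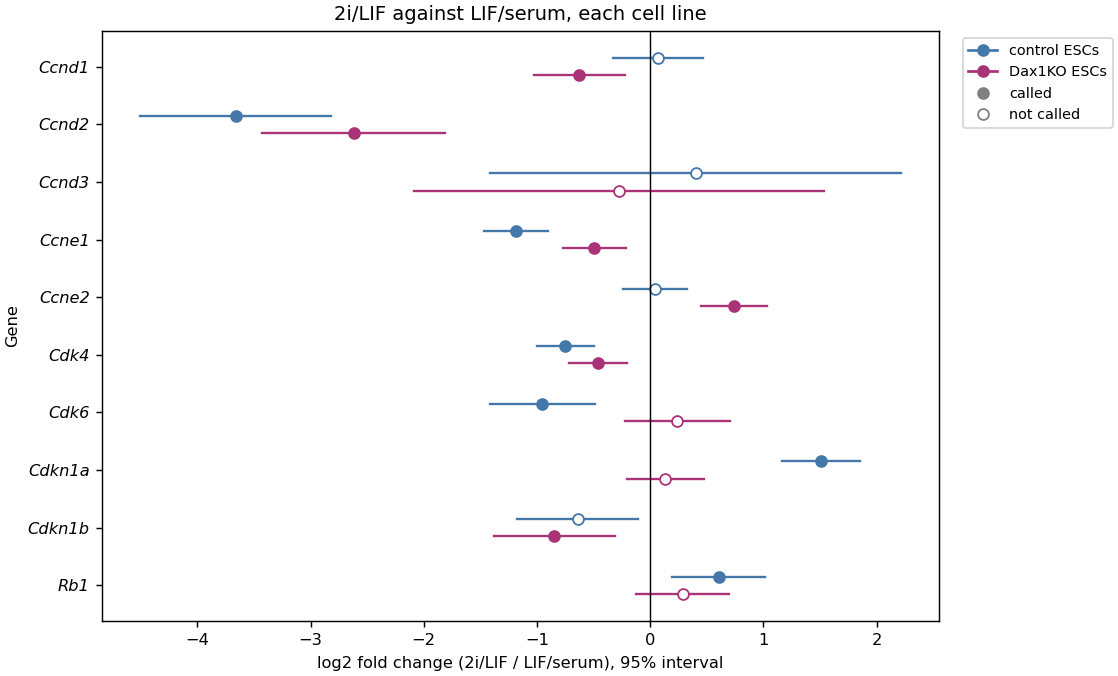
Log2 fold change of 2i/LIF over LIF/serum (x axis) for each gene (y axis) in control and in Dax1KO ESCs, with 95% intervals from edgeR and filled points for called genes. Ccnd2, Ccne1 and Cdk4 are lower in 2i/LIF in both lines, and Cdkn1a is higher in control ESCs only by call, at 1.51 against 0.14 in Dax1KO ESCs.

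Ccnd2 had the largest difference between media of the 10 genes in both lines. It was 12.7-fold lower in 2i/LIF in control ESCs (log2 fold change -3.66, SE 0.36, edgeR adjusted p = 0.000236) and 6.14-fold lower in Dax1KO ESCs (log2 fold change -2.62, SE 0.35, edgeR adjusted p = 0.00126). The control value was -4.32 without the first control library in 2i/LIF and -3.26 without the second, which had 56.2 and 26.0 normalized counts. Ccnd1, in contrast, had a log2 fold change between media of 0.07 (95% interval -0.33 to 0.47) in control ESCs, where the libraries overlapped (edgeR adjusted p = 0.782). In Dax1KO ESCs Ccnd1 was lower in 2i/LIF by 0.62 on the log2 scale (SE 0.18, edgeR adjusted p = 0.0307), a call lost without any 1 of the 4 Dax1KO libraries, at values between -0.72 and -0.53.

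Ccne1 was 2.27-fold lower in 2i/LIF in control ESCs (log2 fold change -1.18, SE 0.12, edgeR adjusted p = 0.000274). In Dax1KO ESCs its log2 fold change was -0.50 (SE 0.12, edgeR adjusted p = 0.0179), and that call was lost without either Dax1KO library in 2i/LIF or without the first Dax1KO library in LIF/serum, at values between -0.52 and -0.38. Ccne2 did the reverse of Ccne1 in Dax1KO ESCs, being higher in 2i/LIF by 0.74 (SE 0.12, edgeR adjusted p = 0.00364), while in control ESCs its libraries overlapped between media (log2 fold change 0.04, SE 0.12, edgeR adjusted p = 0.812).

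Cdk4 was lower in 2i/LIF in both lines, by 0.75 on the log2 scale in control ESCs (SE 0.11, edgeR adjusted p = 0.00143) and by 0.46 in Dax1KO ESCs (SE 0.11, edgeR adjusted p = 0.0163). The call in Dax1KO ESCs was lost without any 1 of the 4 Dax1KO libraries, at log2 fold changes between -0.49 and -0.43. Cdk6 was lower in 2i/LIF in control ESCs (log2 fold change -0.95, SE 0.20, edgeR adjusted p = 0.00782), a call lost without the first control library in 2i/LIF (log2 fold change -0.87). Its adjusted p over the alternatives, from edgeR or DESeq2, lay between 0.000104 and 0.0529. In Dax1KO ESCs the Cdk6 libraries overlapped between media.

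Cdkn1a was 2.84-fold higher in 2i/LIF in control ESCs (log2 fold change 1.51, SE 0.15, edgeR adjusted p = 0.000239), and this held in all 15 alternatives. In Dax1KO ESCs its libraries overlapped between media (log2 fold change 0.14, SE 0.15, edgeR adjusted p = 0.542). Cdkn1b had estimates in the opposite direction to those of Cdkn1a, with -0.64 (SE 0.23, edgeR adjusted p = 0.0627) in control and a called -0.85 (SE 0.23, edgeR adjusted p = 0.0279) in Dax1KO ESCs. The control difference was called by DESeq2 (adjusted p = 0.0213) and by edgeR without the first control library in LIF/serum (-0.90, adjusted p = 0.0264), but the estimate was -0.35 without the second (edgeR adjusted p = 0.314) and -0.44 without the first control library in 2i/LIF. The call in Dax1KO ESCs was lost without either Dax1KO library in 2i/LIF or without the second Dax1KO library in LIF/serum, at values between -0.89 and -0.64. Rb1 was higher in 2i/LIF in control ESCs (log2 fold change 0.61, SE 0.18, edgeR adjusted p = 0.0306), a call lost without any 1 of the 4 control libraries, at values between 0.48 and 0.72. In Dax1KO ESCs the Rb1 estimate was 0.29 (SE 0.18, edgeR adjusted p = 0.269).

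The rest of the G1 pathway was read from 7 lists with 73 genes in all, none of them among the 10. In 2i/LIF edgeR called 0 of the 73 for the knockout, beside 3.16% of all tested genes. DESeq2 called 3 there, beside 1438 of the 20749 tested genes, and 14 had an unadjusted edgeR p under 0.05. In LIF/serum edgeR called 8, with 3 higher and 5 lower, and DESeq2 called 12. For comparison, 14.7% of all tested genes were called there. Between media 43.8% of the 73 were called in control ESCs and 28.8% in Dax1KO ESCs, beside 36.8% and 28.9% of all tested genes. These shares describe the lists and were not tested against other genes.

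**Figure D5:**
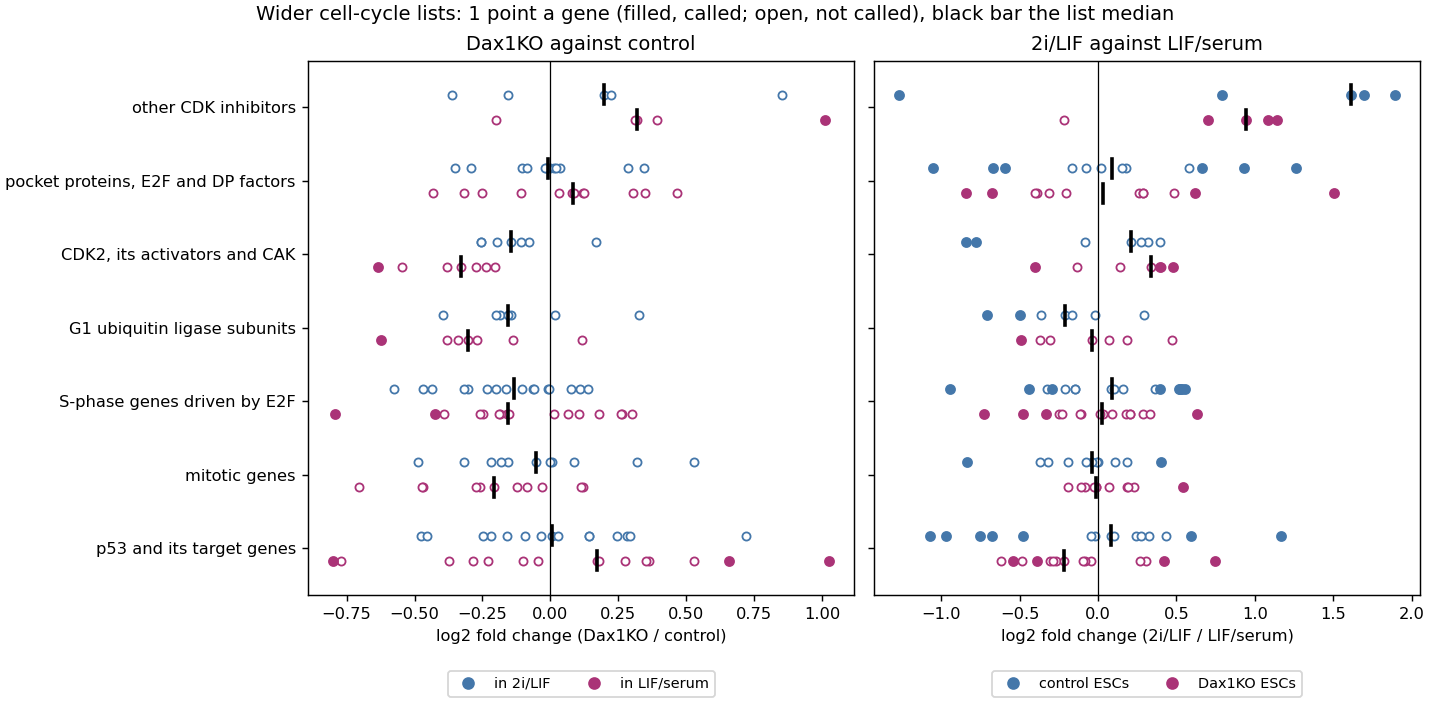
Log2 fold change (x axes) of each gene of 7 cell-cycle lists (y axis) for Dax1KO over control on the left and 2i/LIF over LIF/serum on the right, with filled points for called genes and a black bar at each list's median. For the knockout in 2i/LIF no point is filled, and between media 4 of the 5 other CDK inhibitors are filled and above 0 in both lines.

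Among the 5 other CDK inhibitors, Cdkn2b, an INK4 inhibitor of Cdk4 and Cdk6, was the one called for the knockout. It rose in LIF/serum from 123 ± 31.4 (SD, n = 2) normalized counts in control to 247 ± 33.4 in Dax1KO ESCs (log2 fold change 1.009, edgeR adjusted p = 0.0273), a call lost in 7 of 15 alternatives. Leaving out the first control library or either Dax1KO library of LIF/serum was among these, at log2 fold changes of 0.77, 1.14 and 0.87, as was leaving out either Dax1KO library of 2i/LIF, at 1.012. Its adjusted p in edgeR or DESeq2 ranged from 0.00309 to 0.139. Between media all 4 INK4 genes were called higher in 2i/LIF in both lines, where 20.3% of all tested genes were called higher in control and 15.2% in Dax1KO ESCs. In control ESCs Cdkn2b was higher by 1.89 (edgeR adjusted p = 0.000643), Cdkn2a by 1.70 (edgeR adjusted p = 0.000285) and Cdkn2c by 1.62 (edgeR adjusted p = 0.00798) on the log2 scale. The Cdkn2c call was lost without the second control library in 2i/LIF, at 1.23. In Dax1KO ESCs the log2 fold changes were 1.08 for Cdkn2b, 0.94 for Cdkn2a, 1.14 for Cdkn2c and 0.70 for Cdkn2d, where Cdkn2a alone kept its call without each library in turn. The Cdkn2b call was lost without the second Dax1KO library in 2i/LIF or the first in LIF/serum, at 0.96 and 0.95. The Cdkn2c and Cdkn2d calls were each lost without 5 of the 8 libraries, over ranges of 0.81 to 1.46 and 0.42 to 0.94. Cdkn1c (p57) was lower in 2i/LIF in control ESCs by 1.27 on the log2 scale (edgeR adjusted p = 0.00941), with -0.87 without the first control library in 2i/LIF and -1.86 without the second.

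Of the 12 other pocket proteins, E2F and DP factors, edgeR and DESeq2 both called 0 for the knockout in either medium, with 3 genes at an unadjusted p under 0.05 in LIF/serum and 0 in 2i/LIF. Between media E2f5, an E2F factor that binds pocket proteins, was higher in 2i/LIF by 1.27 in control (edgeR adjusted p = 0.000395) and by 1.503 in Dax1KO ESCs (edgeR adjusted p = 0.000257). E2f8, an atypical E2F repressor, was lower in 2i/LIF in control ESCs by 1.05 (edgeR adjusted p = 0.00581, held in all 15 alternatives), with an estimate of -0.39 that was not called in Dax1KO ESCs (edgeR adjusted p = 0.2). E2f4, which acts with pocket proteins as a repressor, was lower in 2i/LIF by 0.67 (edgeR adjusted p = 0.0021) and by 0.84 (edgeR adjusted p = 0.000976). Rbl1 (p107), the sister of Rb1, was higher in 2i/LIF by 0.93 in control ESCs (edgeR adjusted p = 0.000921) and by 0.62 in Dax1KO ESCs (edgeR adjusted p = 0.00792), the latter lost without the first Dax1KO library of either medium, at 0.59 and 0.53. E2f2 was called lower in Dax1KO ESCs by 0.68 (edgeR adjusted p = 0.032), which was lost without the first control or either Dax1KO library in 2i/LIF or the first Dax1KO library in LIF/serum, at values between -0.76 and -0.41.

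Of the 7 genes for Cdk2, its activators and the CDK-activating kinase, edgeR and DESeq2 each called 1 for the knockout in LIF/serum, beside 14.7% of all tested genes by edgeR. All 7 estimates were below 0 in that medium, 5 of them with an unadjusted edgeR p under 0.05. Cdk7, the kinase that activates other CDKs, fell there from 3743 ± 79.0 to 2414 ± 110 normalized counts (log2 fold change -0.63, edgeR adjusted p = 0.0107), a call lost without the second Dax1KO library in LIF/serum, at -0.58. Of the 7 subunits of G1 ubiquitin ligases, edgeR called 1 and DESeq2 called 2 for the knockout in LIF/serum, and 2 had an unadjusted edgeR p under 0.05. Skp1, the adaptor of the SCF ligases, fell from 15562 ± 1472 to 10097 ± 1706 (log2 fold change -0.62, edgeR adjusted p = 0.0222), a call lost in 7 of 15 alternatives. Among these were leaving out either Dax1KO library of 2i/LIF, the second control library of LIF/serum (-0.54) or the first Dax1KO library of LIF/serum (-0.46).

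Of the 16 S-phase genes driven by E2F, edgeR called 0 for the knockout in 2i/LIF, where 5 had an unadjusted p under 0.05 and DESeq2 called 2, all of them lower. In LIF/serum 2 were called lower, beside 5.78% of all tested genes, and DESeq2 also called 2 lower. At an unadjusted edgeR p under 0.05, 2 were higher and 4 lower in that medium. Tyms, which makes thymidylate, fell from 2732 ± 121 to 1579 ± 75.7 normalized counts (log2 fold change -0.79, edgeR adjusted p = 0.00913), a call lost without the second Dax1KO library in LIF/serum, at -0.74. Pcna, the replication clamp, fell from 14987 ± 527 to 11177 ± 1489 (log2 fold change -0.42, edgeR adjusted p = 0.048), a call that only 3 of 15 alternatives kept. Of the 11 mitotic genes, edgeR called 0 for the knockout in either medium. DESeq2 called 0 there in 2i/LIF but 2 in LIF/serum, and 3 and 5 had an unadjusted p under 0.05.

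Of p53 and 14 of its targets other than Cdkn1a, 3 were called for the knockout in LIF/serum, in both directions, beside 14.7% of all tested genes. DESeq2 called 3 higher and 1 lower, and at an unadjusted edgeR p under 0.05, 4 were higher and 2 lower. Btg2, an antiproliferative gene, rose from 2056 ± 64.2 to 4183 ± 188 normalized counts (log2 fold change 1.02, edgeR adjusted p = 0.00477), and Sesn1, a stress-response gene, rose from 912 ± 97.6 to 1439 ± 40.5 (log2 fold change 0.66, edgeR adjusted p = 0.0192). The Sesn1 call was lost without the second control library or either Dax1KO library in LIF/serum, at values between 0.54 and 0.69. Trp53 itself fell from 19891 ± 739 to 11432 ± 1.23 (log2 fold change -0.80, edgeR adjusted p = 0.00505). The list's median was 0.17, with 8 estimates above 0 and 7 below. Between media in control ESCs the same list had 2 genes higher and 5 lower in 2i/LIF, beside 20.3% and 16.5% of all tested genes. Btg2 was higher by 1.17 (edgeR adjusted p = 0.000493), Gadd45a lower by 1.07 (edgeR adjusted p = 0.00246) and Trp53 lower by 0.97 (edgeR adjusted p = 0.000411). Bax, a pro-apoptotic gene, was lower by 0.75 (edgeR adjusted p = 0.0198), a call lost without the first control library in 2i/LIF (-0.62) or the second in LIF/serum (-0.42). In Dax1KO ESCs 2 genes of the list were called higher and 2 lower in 2i/LIF, beside 15.2% and 13.7% of all tested genes. The list's median between media was -0.22 in Dax1KO and 0.08 in control ESCs.

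Genes with the most similar pattern to each D-type cyclin were found by Pearson's r of log2 CPM over the 8 libraries among 14960 genes, given as a description since the libraries fall into 4 groups. For Ccnd1 they were Tnks2 (r = 0.988), Sall2 (r = 0.98) and the overlapping LTO1 (r = 0.979). For Ccnd2 they were Mto1 (r = 0.992), Ncoa7 (r = 0.992) and Fgfr3-ps (r = 0.991), but 247 genes had r above 0.95, so that these are 3 of many genes that differ between the media. For Ccnd3 only Zbtb49 passed 0.95 (r = 0.956), and it spanned 0.58 on the log2 scale where Ccnd3 spanned 2.86.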

How the data were processed

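Polyadenylated RNA of 8 libraries was sequenced on an Illumina HiSeq. The values are raw counts per gene, which the authors deposited as whole numbers with 1 table per library. Per the submitters' processing notes the build was mm10 and the tools included HISAT2 2.0.4 and DESeq2, and the counting program, its annotation and its use of strand are not given in the sources used here. Gene models were taken from GENCODE M21 (GRCm38), and promoters and motif backgrounds from RefSeq (GRCm38.p6). Genes were filtered with filterByExpr, libraries were scaled by TMM (factors 0.9597 to 1.036), and 1 edgeR 4.0.16 quasi-likelihood model of the 4 groups was fitted in R 4.3.3, with Benjamini-Hochberg adjustment over all 20749 tested genes. Contrasts compared genotypes within a medium, media within a line, and the genotype effect between media (called at adjusted p of 0.05 or less alone). Common dispersion corresponded to a 20.9% coefficient of variation. For display, counts were scaled to the mean effective library size (normalized counts), and levels per length used the union of a gene's exons. Counting error alone was not the limit at these depths.

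The 10 genes and the 7 wider lists were chosen with earlier results of these data known. List genes were named by rule, at most 4 per list from those called with the largest absolute change, and for each D-type cyclin the 3 genes with the highest correlation were named. LTO1 and its neighbours were named after their values were seen, and the alternatives for LTO1 and the named list genes were added then. The alternatives were DESeq2 1.42.0, RLE factors, TMM factors computed without chromosome 6, no filter, a separate fit for each comparison, a replicate block, a fold change of at least 2 and leaving out each library. The fitting code was tested on simulated data.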

Additional observations from a re-analysis of the deposited data

Results flagged for a closer look

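The Dax1KO effect on Cdkn1a differed between media by 1.37 on the log2 scale (95% interval 0.89 to 1.85, edgeR adjusted p = 0.0224), being 1.14 in LIF/serum and -0.23 in 2i/LIF. The interaction test drew attention to it, and the call was lost in 7 of 13 alternatives, with values between 1.19 and 1.51 over the left-out libraries.

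Sesn1, a p53 target, had an effect that differed by 1.13 (95% interval 0.69 to 1.58, edgeR adjusted p = 0.0299). Its normalized counts in 2i/LIF were 1328 and 1420.3 in control and 1041 and 935 in Dax1KO ESCs. In LIF/serum they were 981 and 843 in control and 1410.1 and 1467 in Dax1KO ESCs, so both Dax1KO libraries lay below control in the former medium and above it in the latter. This call was lost in 8 of 13 alternatives, 7 of which left out 1 library, with values between 1.02 and 1.25.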

How the results depend on the processing

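The knockout calls of Ccnd1 in both media and of Cdkn1a in LIF/serum, and the calls between media of Ccnd2 in both lines and of Ccne1 and Cdkn1a in control ESCs, held in all 15 alternatives. RLE factors and TMM factors without chromosome 6 changed no call among the 10 genes. Of 730 member values under an alternative, 656 kept direction and call, 45 lost and 10 gained a call, and 19 changed sign without a call. Counts of genes called moved most. Over all genes, 656 were called for the knockout in 2i/LIF, but 1438 by DESeq2, 121 with no filter, 408 at a fold of 2 and 38 (without its second Dax1KO library) to 673 with a library left out. For LIF/serum it was 3041, and 1842 with no filter, 1743 in a separate fit, 1420 at a fold of 2 and 728 (without its second Dax1KO library) to 2496. For the difference between media it was 596, and 1442 by DESeq2, 119 with no filter and 36 (without the second Dax1KO library in 2i/LIF) to 344. Between media it was 7641 in control ESCs, and 4535 at a fold of 2 and 5057 to 7120, and 5999 in Dax1KO ESCs, and 3580 at a fold of 2 and 2986 to 6286. Of the 10 genes, DESeq2 called 5 for the knockout in LIF/serum (edgeR 3) and 4 for the difference between media (edgeR 1). The latter count was 0 with no filter, where DESeq2 had 4 and 5 had an unadjusted p under 0.05 in edgeR with the filter, and it was 0 to 1 with a library left out. At a fold of 2, 3 genes were called between media in control ESCs and 1 in Dax1KO ESCs, against 6 in each, with 4 to 6 and 2 to 6 over left-out libraries. All but 1 of the 19 sign changes came from left-out libraries, the other from the replicate block. For the knockout in 2i/LIF the ranges were -0.19 to 0.90 for Ccnd2 (-0.04 without the second Dax1KO library), -1.58 to 1.27 for Ccnd3, -0.032 to 0.095 for Cdk4 and -0.11 to 0.28 for Rb1. In LIF/serum the Ccnd3 range was -0.80 to 0.37, with 0.10 without the second control library. For the difference between media it was -1.37 to 1.46 for Ccnd3 (-0.02 without the first Dax1KO library in LIF/serum) and -0.049 to 0.51 for Cdkn1b (-0.043 without the second control library in 2i/LIF). Between media in control ESCs it was -0.18 to 0.34 for Ccnd1, -1.65 to 1.17 for Ccnd3 and -0.068 to 0.11 for Ccne2 (-0.03 without the second control library in LIF/serum). In Dax1KO ESCs it was -0.93 to 0.42 for Ccnd3 (0.17 without the second Dax1KO library in 2i/LIF) and -0.0039 to 0.53 for Cdk6. In these fits the lone library of a group is assumed to vary like the other groups. By longest transcript, Ccnd1 made up 33.9% and Ccnd3 65.3% of the D-type sum in Dax1KO ESCs in 2i/LIF, 57.9% and 38.7% in control and 38.5% and 58.0% in Dax1KO ESCs in LIF/serum. Replicate numbers were shared by all groups, and the deviations of same-numbered libraries correlated by only -0.015 to 0.108. Whether same-numbered libraries were handled together is not given in the sources used here, and weak correlations cannot exclude it. With the replicate block the 10 genes had 1, 4, 1, 7 and 6 calls in the order above (all genes 573, 3218, 552, 7754 and 6075), the gained calls being Cdkn1b for the knockout in LIF/serum (0.72, edgeR adjusted p = 0.0231) and between media in control ESCs (-0.63, edgeR adjusted p = 0.0156), and the Ccnd3 estimate between media in control ESCs was -0.16. The causes of these changes were not tested. With 2 libraries per group, the spread between libraries and not the depth limits most of these values.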
